A study of Mus musculus with 14 samples.

Results

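Transcription factors of 8 families that pattern the vertebrate embryo were followed in RNA of the mouse uterus. The genes were those whose symbol is Irx, Lhx, Pax, Sox, Tbx or Gata with digits, Tfap2 with a letter, or that of a sine oculis homeobox gene such as Six2, and which had a probe in the authors' normalized table, with symbols from the platform annotation. Lhx1 was not included. This gave 36 genes of the 10478 tested, read by 54 probes. The chosen genes are Irx2, Irx3, Irx4 and Irx5, Lhx2, Lhx4, Lhx5, Lhx6, Lhx8 and Lhx9, Pax8, Six2 and Six5, Sox2, Sox4, Sox5, Sox7, Sox9, Sox10, Sox12, Sox13, Sox14, Sox17, Sox18 and Sox21, Tbx1, Tbx2, Tbx3, Tbx4 and Tbx6, Gata2, Gata3 and Gata6, and Tfap2a, Tfap2b and Tfap2c. RefSeq lists 71 mouse genes whose symbols fit the same rule, and 35 of them had no named probe in that table and were not analysed here. The rule by which the authors chose the probes of their table is not known, and all 36 genes passed the filter on dim probes, so shares among them do not describe the whole families.

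The RNA came from C57BL/6 mice of 8 weeks, hybridised to 14 Illumina mouse BeadChip arrays. The non-pregnant group held 5 arrays of uterus from mice that were not pregnant. The PBS group held 5 arrays of uterus from pregnant mice given PBS, a buffered saline, and the PC61 group held 4 arrays of uterus from pregnant mice given PC61, and both were taken 12 days after fertilization. PC61 is a rat monoclonal antibody that binds CD25, a subunit of the receptor for interleukin-2, and serves to remove regulatory T cells. Neither its dose and schedule nor whether embryo and placenta were taken off the uterus is stated in the labels. The probes named here did not hold Il2ra, the gene of the antibody's target, which was therefore not analysed here. The labels number the replicates but do not say that they are separate animals, so the p-values cover the spread among these samples alone, and part of that spread may be technical. In bulk RNA, fewer cells of a type and less RNA per cell cannot be told apart.

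The 8 families share no single fold. Iroquois (Irx), LIM (Lhx) and sine oculis (Six2, Six5) factors bind DNA through homeodomains, Pax factors through a paired domain, Sox factors through an HMG box, T-box (Tbx) and AP-2 (Tfap2) factors through domains named after them, and GATA factors through zinc fingers. In the embryo they divide the neural tube, the neural crest, the limb and the body segments into territories, and several are used again in other organs. Gata3 and Tfap2c act in trophoblast, the outer lineage of the placenta, and Sox7, Sox17 and Sox18 form the SoxF group of blood vessels.

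Promoter windows are shown for Irx2, Irx3 and Tfap2b, whose probes rose strongly in pregnancy on all arrays, and for Six2, which was lower on some PC61 arrays, so that the genes behind the values can be seen. They come from RefSeq (build GRCm38.p6), span the annotated start with 300 bases each, and read 5′ to 3′ on the gene's own strand. Capitals mark the matches to the motifs listed after them. The Irx2 window lies at chr13:72628570-72628869 on the plus strand, the Irx3 window at chr8:91801605-91801904 on the minus strand, the Tfap2b window at chr1:19211804-19212103 on the plus strand and the Six2 window at chr17:85688205-85688504 on the minus strand.
Irx2: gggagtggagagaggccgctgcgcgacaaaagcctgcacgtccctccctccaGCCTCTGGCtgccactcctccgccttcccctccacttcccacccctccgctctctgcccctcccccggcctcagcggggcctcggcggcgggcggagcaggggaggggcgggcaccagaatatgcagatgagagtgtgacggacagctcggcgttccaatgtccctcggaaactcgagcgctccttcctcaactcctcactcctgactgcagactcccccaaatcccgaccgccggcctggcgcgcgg
Irx3: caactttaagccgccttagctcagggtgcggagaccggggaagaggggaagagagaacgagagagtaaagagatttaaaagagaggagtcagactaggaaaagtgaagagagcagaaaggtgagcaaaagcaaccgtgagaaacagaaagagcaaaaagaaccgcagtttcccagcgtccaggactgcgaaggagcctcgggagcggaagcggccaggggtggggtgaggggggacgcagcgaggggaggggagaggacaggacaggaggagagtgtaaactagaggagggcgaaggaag
Tfap2b: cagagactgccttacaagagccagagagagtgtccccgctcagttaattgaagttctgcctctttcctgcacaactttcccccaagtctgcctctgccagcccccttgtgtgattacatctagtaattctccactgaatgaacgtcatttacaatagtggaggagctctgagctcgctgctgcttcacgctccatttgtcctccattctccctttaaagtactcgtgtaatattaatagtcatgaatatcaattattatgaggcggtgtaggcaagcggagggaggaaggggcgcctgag
Six2: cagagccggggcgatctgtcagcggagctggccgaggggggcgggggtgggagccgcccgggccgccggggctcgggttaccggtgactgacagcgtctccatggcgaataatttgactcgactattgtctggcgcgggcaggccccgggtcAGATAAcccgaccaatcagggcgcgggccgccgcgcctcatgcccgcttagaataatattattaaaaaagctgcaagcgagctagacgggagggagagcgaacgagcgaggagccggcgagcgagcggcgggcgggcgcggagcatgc

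Of the 36 genes, 25 had windows counted here, with 31 windows in all since some genes have several starts. The others were not in the RefSeq promoter table, or lay on a chromosome left out for these genes and not for the set of all windows. The median GC content of these windows was 65.7% with 17 CG pairs, against 52.7% and 7 over all 32851 windows of the table. Motifs were searched on both strands as GCCNNNGGC for AP-2, AGATAA for GATA factors, ACANNTGT for Iroquois factors, ACAAAG for Sox factors and GGTGTGA for T-box factors. The AP-2 letters were found in 6 of the 31 windows, the Irx2 window among them, and in 16.6% of all windows. The GATA letters were found in 2, those of Six2 and Lhx8, and in 11.2% of all windows. The Sox letters were found in 4 and in 18.7% of all windows, the Iroquois letters in 1 and in 7.38%, and the T-box letters in 1 and in 3.98%. A match describes letters only, and the Irx3 and Tfap2b windows held no match to these motifs. The arrays did not measure binding at these windows.

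Levels below are log2 intensities after background correction and quantile normalization, and a difference of 1 on this scale is a 2-fold difference. They order arrays for 1 probe and do not compare genes with each other. The lowest level at which any probe was detected on an array lay between 5.00 and 5.55, and a level near or under it is background. Foxp3, which defines regulatory T cells, lay at a log2 level of 9.90, 9.05, 9.21 and 9.34 on PC61 arrays 1 to 4 and at 9.32 to 9.67 on the PBS arrays. Of the other 5 measured T cell markers, Cd3d, Cd3e, Cd3g and Cd2 were above background on no PBS array, and Ctla4 lay at 4.30, 6.58, 6.24 and 5.03 on PC61 arrays 1 to 4 and at 4.97 to 5.36 on the PBS arrays. Median probe intensities before normalization ranged from 93.0 to 139 and the number of detected probes from 16607 to 19729. Across all genes tested, arrays correlated at 0.939 to 0.989 in the non-pregnant group and 0.971 to 0.987 in the PBS group, but at 0.861 to 0.980 in the PC61 group. The spread of the patterning genes followed this. Their median SD was 0.234 in the non-pregnant and 0.215 in the PBS group, but 0.632 in the PC61 group, where that of all genes was 0.407. Gata3, Sox9, Sox10, Tbx2, Tbx4, Tfap2a and Tfap2c had an SD above 1 in the PC61 group, which is 19.4% of the 36 against 11.2% of all genes.

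The PC61 arrays also differed in the tissue markers they carried, which bears on every PC61 value below. Relative to the PBS mean, the mean of 21 measured trophoblast and placenta markers stood at -4.71, -4.54, -2.67 and 0.42 on PC61 arrays 1 to 4, with the PBS arrays at -0.16 to 0.11 and the non-pregnant arrays at -5.61 to -5.38. The 10 embryonic limb and mesenchyme markers stood at 0.71, -1.90, -1.81 and 0.05 on the same arrays, and the 10 embryonic blood and yolk sac markers at -0.37, -2.87, -2.56 and 0.10. The 12 embryonic neural markers stood at 0.36, -0.34, -0.94 and 0.22. Array 4 stood nearest to the PBS arrays in these lists, arrays 2 and 3 were low in blood, limb and trophoblast markers, and array 1 was low in trophoblast markers and little below the PBS arrays in blood markers. The maternal lists moved too. The 8 natural killer cell markers stood at -3.35, 0.83, 0.66 and 0.29 and the 9 decidua markers at -1.09, 0.36, 0.51 and -0.12, so that array 1 was the low one. The 11 smooth muscle markers, which define the uterine wall and were above background in every group, stood at 1.32, 1.86, 1.65 and -0.76. None of these lists had a marker below background on every PC61 array. On the non-pregnant arrays, 18 of the 21 trophoblast markers, 7 of the 12 neural markers and 5 of the 10 limb markers were not above background. The part of tissue make-up in the PC61 results was not tested.

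The comparison of PBS with non-pregnant uterus sets pregnant mice given PBS against mice that were not pregnant. The labels name no PBS treatment for the non-pregnant mice, so pregnancy and PBS cannot be told apart here. Most of the 36 genes rose. In limma's test, 23 of the 36 were higher in the PBS group and 6 were lower at an adjusted p under 0.05, while 7 did not pass. Of all genes tested 46.6% passed, 22.9% as higher and 23.7% as lower. The median log2 fold change of the 36 was 1.08, against -0.03 for all genes. The filter on dim probes asked for detection on at least 4 arrays of any group. Genes at background without pregnancy thus entered through the pregnant arrays alone, which favours rises in this count and median. Of the 15 genes detected on all arrays, 5 were called higher and 6 lower, where 3204 of 7805 genes so detected passed. A rise of at least 2-fold was called for 20 of the 36 and a fall of at least 2-fold for 3. Over all 10478 genes, 1411 such rises and 1224 such falls were called. By known role, factors of the neural tube and brain were called higher in 11 of 12, and factors of the neural crest and embryonic mesoderm in 9 of 13 with 1 lower. Both trophoblast factors were higher. Of 5 factors of vessels, uterine epithelium and blood 3 were lower and the others did not pass. Of 4 broadly expressed factors 1 was higher and 2 were lower. The embryonic marker lists were higher on the PBS arrays too, with the non-pregnant arrays at -3.48 to -3.25 relative to the PBS mean for the neural list and at -3.04 to -2.96 for the limb list, and their part in these results was not tested.

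**Figure D1:**
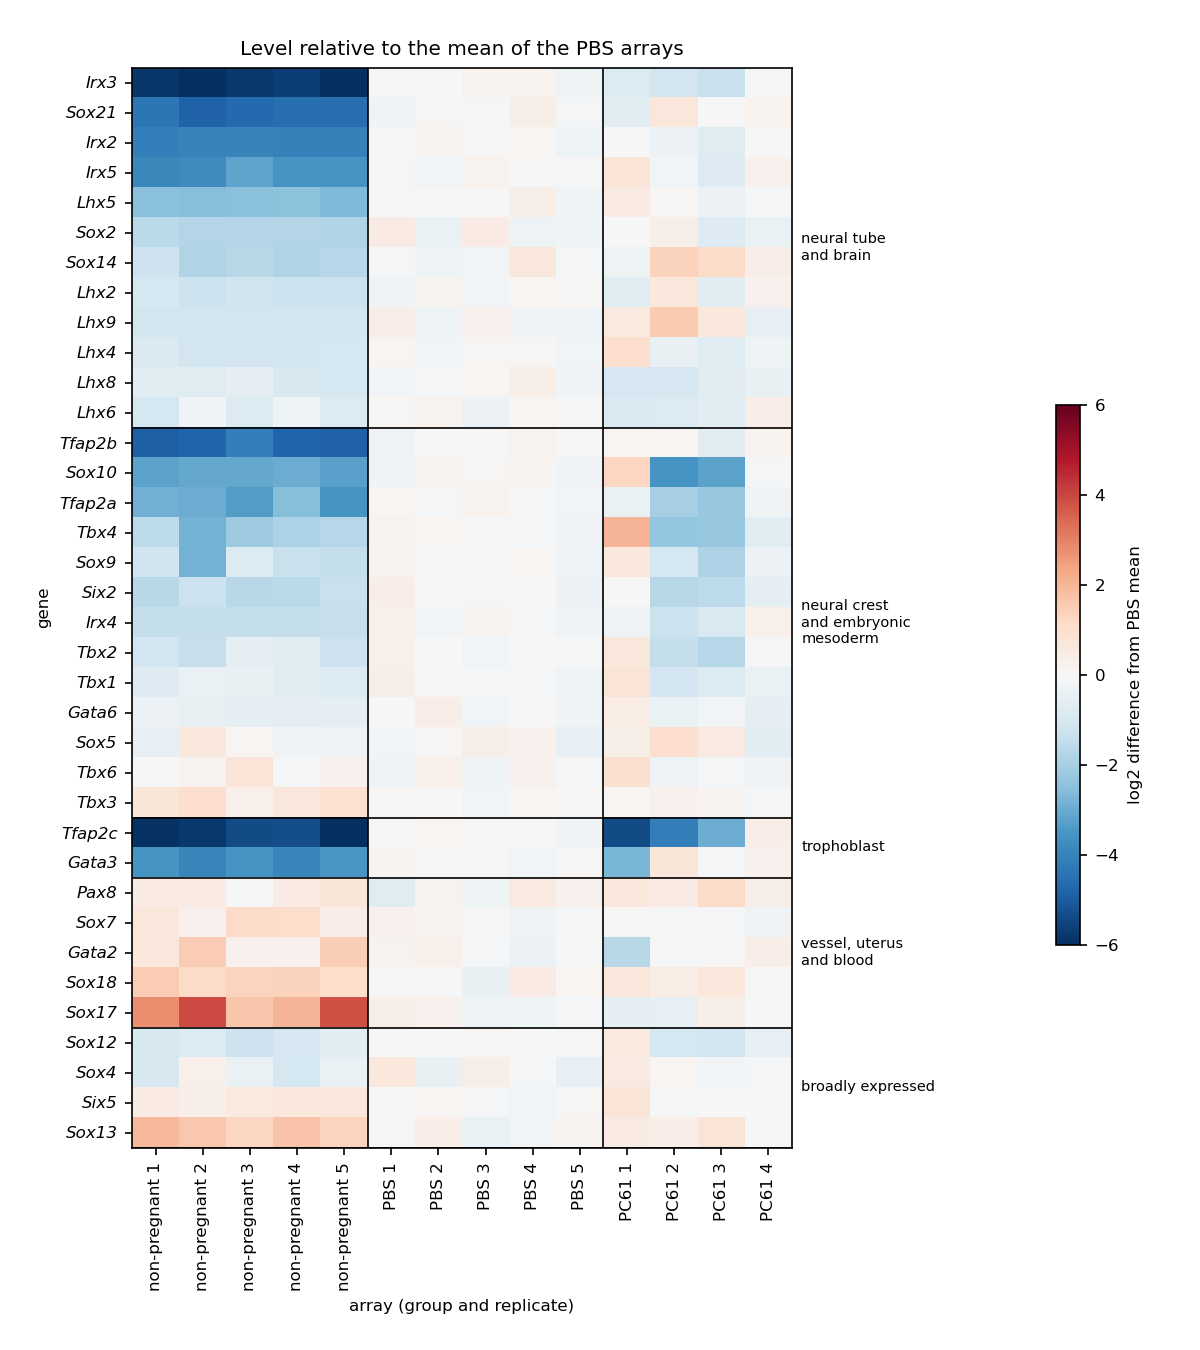
Log2 level of each of the 36 genes (vertical axis, grouped by known role) on each of the 14 arrays (horizontal axis), relative to the mean of the 5 PBS arrays; blue is lower and red is higher, in log2 units, with colours ending at 6. The neural and trophoblast blocks and most of the crest block are blue on the 5 non-pregnant arrays, where Tbx3 and Sox17 are red and Tbx6 and Sox5 are mixed, and PC61 arrays 1 to 3 differ from each other while array 4 is close to the PBS arrays.

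Irx3, an Iroquois factor of the neural tube and limb bud, had the largest fitted rise of the 36, in a ranking where Tfap2b, Sox21, Irx2 and Irx5 have only lower bounds. Its log2 levels were 5.74, 5.42, 5.77, 5.94 and 5.41 on the non-pregnant arrays 1 to 5 and 11.50, 11.58, 11.79, 11.77 and 11.27 on the PBS arrays 1 to 5. The groups were far apart, and the probe was above background on all arrays. The log2 fold change was 5.92 (SE 0.22, adjusted p = 1.14e-10). Irx5, its neighbour in the genome and partner in heart and limb development, lay at 4.32, 4.42, 5.02, 4.64 and 4.65 on the non-pregnant and 8.14, 8.01, 8.39, 8.23 and 8.18 on the PBS arrays. No non-pregnant array had it above background, so the rise, 3.58 on the log2 scale (SE 0.24, adjusted p = 3.74e-08), is given as at least 8.03-fold.

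Irx2, which stands beside Irx4 in a separate Iroquois cluster, had levels of 4.31, 4.39, 4.36, 4.31 and 4.33 on the non-pregnant arrays and 8.38, 8.56, 8.40, 8.51 and 8.07 on the PBS arrays. It went from background on all 5 non-pregnant arrays to detection on all 5 PBS arrays, a rise of at least 9.19-fold with a fitted log2 fold change of 4.04 (SE 0.16, adjusted p = 1.95e-10). That bound depends on the background correction and offset used here. With a larger offset, without background correction or with the authors' normalized values, the fitted rise was still called but lay below it. A second probe of Irx2 gave 3.63 in the same direction. Irx4, a factor of the heart ventricle, went the same way from a mean of 4.37 ± 0.03 (SD, n = 5) to 5.79 ± 0.21 (SD, n = 5). Its rise was small above the detection limit, at least 1.52-fold, with an adjusted p of 2.45e-04.

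Sox21, a Sox gene of neural progenitors, lay at 5.02, 4.53, 4.70, 4.84 and 4.83 on the non-pregnant and 9.08, 9.44, 9.25, 9.73 and 9.28 on the PBS arrays. That is a rise from background of at least 18-fold, with a fitted log2 fold change of 4.57 (SE 0.22, adjusted p = 1.19e-09). Its second probe, which is dimmer, gave 1.04. Sox14, which marks groups of interneurons, lay at 4.96, 4.41, 4.55, 4.40 and 4.51 on the non-pregnant and 6.09, 5.94, 6.04, 6.86 and 6.08 on the PBS arrays. No level of one group reached the other, and the rise was at least 2.02-fold (adjusted p = 3.25e-04). Sox2, which maintains neural progenitors, rose at least 1.89-fold from a mean of 4.36 ± 0.07 (SD, n = 5) to 6.10 ± 0.45 (SD, n = 5).

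The LIM homeobox genes act in the forebrain, spinal cord, pituitary and gonad. Lhx5, a forebrain factor, lay at 4.41, 4.36, 4.44, 4.48 and 4.29 on the non-pregnant and 6.79, 6.92, 6.93, 7.27 and 6.73 on the PBS arrays. These values do not overlap, and the rise was at least 3.34-fold, with a fitted log2 fold change of 2.53 (SE 0.16, adjusted p = 2.70e-08). Lhx2, Lhx4, Lhx8 and Lhx9 also went from background on all non-pregnant arrays to values called higher, but by little above the detection limit, between at least 1.19-fold for Lhx8 and at least 1.31-fold for Lhx2. Lhx6, a factor of cortical interneurons, missed the threshold with a log2 fold change of 0.63 (SE 0.25, adjusted p = 0.0501).

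**Figure D2:**
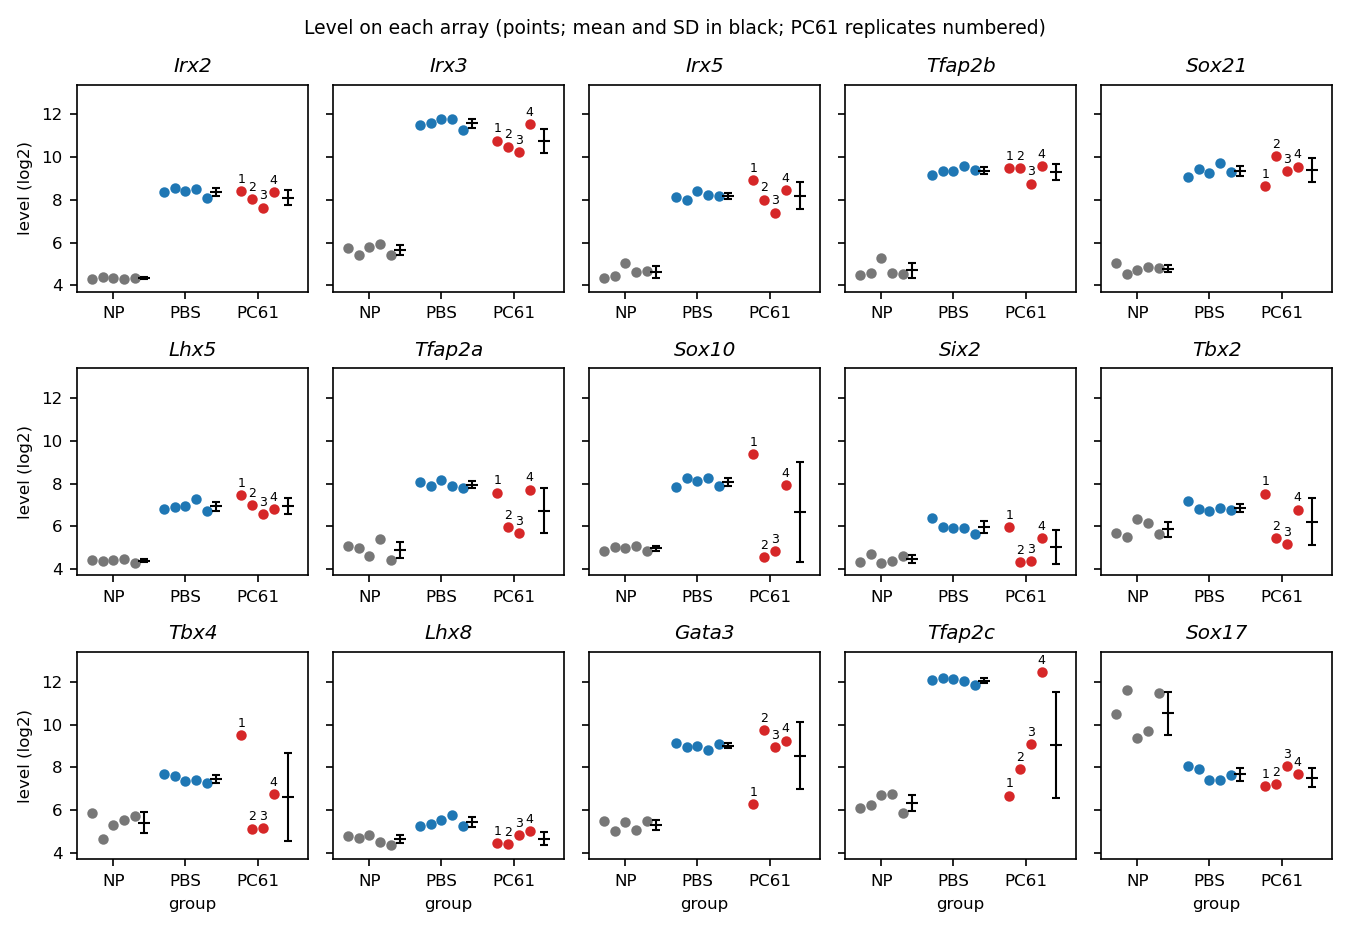
Log2 level (vertical axis) of single genes on each array, by group (horizontal axis; NP is non-pregnant); points are arrays, bars are group means with SD, and array numbers mark the PC61 points. Irx2, Irx3 and Tfap2b are higher on all PBS and PC61 arrays than on any non-pregnant array, while Sox10, Tbx4, Gata3 and Tfap2c are spread over the PC61 arrays and Sox17 is lower in both pregnant groups.

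Of the neural crest factors, Tfap2b had the largest fitted rise. This AP-2 factor is needed in the kidney, the ductus arteriosus and crest derivatives. Its levels were 4.48, 4.58, 5.29, 4.59 and 4.52 on the non-pregnant arrays and 9.15, 9.36, 9.37, 9.57 and 9.41 on the PBS arrays. The first set lies at background and the second well above it, so the rise was at least 18.2-fold (log2 fold change 4.68 with an SE of 0.19 and an adjusted p of 3.66e-10). Its other 2 probes gave 4.35 and 4.34. Tfap2a, the AP-2 factor of crest and craniofacial ectoderm, lay at 5.07, 4.98, 4.59, 5.39 and 4.43 on the non-pregnant and 8.07, 7.88, 8.15, 7.90 and 7.77 on the PBS arrays. It was above background on 1 of 5 non-pregnant arrays and all PBS arrays, and its log2 fold change was 3.06 (SE 0.35, adjusted p = 1.04e-05). Sox10, a factor of crest and glia, had levels of 4.86, 5.02, 5.00, 5.07 and 4.83 on the non-pregnant and 7.85, 8.25, 8.14, 8.24 and 7.89 on the PBS arrays. The groups did not overlap, and the log2 fold change was 3.12 (SE 0.69, adjusted p = 0.00212).

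The mesodermal factors rose less. Tbx4, which acts in the hindlimb bud and the allantois, lay at 5.86, 4.62, 5.28, 5.52 and 5.73 on the non-pregnant and 7.67, 7.58, 7.36, 7.39 and 7.24 on the PBS arrays. Its log2 fold change was 2.04 (SE 0.63, adjusted p = 0.0151). Tbx2, its neighbour in the genome and a repressor in limb and heart, lay at 5.69, 5.49, 6.32, 6.13 and 5.65 on the non-pregnant and 7.16, 6.82, 6.70, 6.86 and 6.77 on the PBS arrays. It passed with a smaller difference, 1.00 (SE 0.36, adjusted p = 0.0343). Six2, which keeps nephron progenitors undifferentiated, lay at 4.32, 4.70, 4.29, 4.35 and 4.63 on the non-pregnant and 6.38, 5.98, 5.92, 5.94 and 5.63 on the PBS arrays, the former at background. Its rise was at least 1.72-fold (adjusted p = 5.29e-04). Sox9, the cartilage factor, rose by 1.53 (SE 0.41, adjusted p = 0.00741) on the log2 scale, and Gata6, a factor of heart and endoderm, by 0.50 (SE 0.18, adjusted p = 0.0332). Tbx3 went the other way. It lay at 9.85, 10.11, 9.42, 9.78 and 10.02 on the non-pregnant and 9.20, 9.11, 8.95, 9.23 and 9.11 on the PBS arrays, a log2 fold change of -0.72 (SE 0.14, adjusted p = 9.93e-04) that its other 2 probes shared at -0.96 and -0.73. With median scaling of the arrays its call was lost (-0.49, adjusted p = 0.241). Tbx1, Tbx6 and Sox5 did not pass, with log2 fold changes of 0.63, -0.23 and 0.06. Of the 4 probes of Sox5, a partner of Sox9 in cartilage, 1 of the others was lower at -0.55 with an adjusted p of 0.0374 over probes.

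Both trophoblast factors were among the largest rises. Tfap2c, the AP-2 factor of trophoblast, lay at 6.11, 6.25, 6.69, 6.74 and 5.87 on the non-pregnant and 12.08, 12.19, 12.14, 12.03 and 11.86 on the PBS arrays. All PBS arrays lay far above the non-pregnant range, with a log2 fold change of 5.73 (SE 0.74, adjusted p = 2.94e-05), and its other 2 probes gave 4.42 and 5.24. Gata3, which acts in trophoblast and in T cells, lay at 5.48, 5.03, 5.45, 5.08 and 5.50 on the non-pregnant and 9.15, 8.97, 8.98, 8.82 and 9.07 on the PBS arrays. The groups did not overlap and the log2 fold change was 3.69 (SE 0.47, adjusted p = 2.66e-05).

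The SoxF genes fell, although the call of Sox7 was lost with median scaling of the arrays (-0.51, adjusted p = 0.169). Sox17, known in endothelium, endoderm and the uterine epithelium, had levels of 10.48, 11.60, 9.36, 9.72 and 11.49 on the non-pregnant arrays and 8.05, 7.93, 7.38, 7.40 and 7.62 on the PBS arrays. Even the lowest non-pregnant array lay above every PBS array, with a log2 fold change of -2.86 (SE 0.39, adjusted p = 4.56e-05), and the second probe gave -3.02. Sox18, a vessel and lymphatic factor, lay at 9.49, 9.12, 9.33, 9.34 and 9.04 on the non-pregnant and 7.84, 7.96, 7.53, 8.49 and 8.07 on the PBS arrays. Sox7, the other member of the group, lay at 8.70, 8.29, 9.15, 9.09 and 8.40 on the non-pregnant and 8.27, 8.19, 7.97, 7.74 and 7.90 on the PBS arrays. Neither pair of groups overlapped, and their log2 fold changes were -1.29 (SE 0.19, adjusted p = 7.55e-05) and -0.71 (SE 0.18, adjusted p = 0.00503). The lists of other tissue markers did not move alike here. The 11 uterine epithelium markers stood 1.63 to 2.15 above the PBS mean on the non-pregnant arrays, and the 9 endothelium markers stood at -0.37 to 0.00. Their part in the SoxF values was not tested. Gata2, a factor of blood progenitors and of the uterine response to progesterone, stood 0.61, 1.53, 0.24, 0.25 and 1.47 above the PBS mean on the non-pregnant arrays 1 to 5 and lay at 11.66, 11.77, 11.35, 11.10 and 11.48 on the PBS arrays. The groups overlapped and the difference did not pass (-0.82 with an SE of 0.36 and an adjusted p of 0.0801). Pax8, a factor of the female reproductive tract epithelium, thyroid and kidney, did not pass either, at -0.44 (SE 0.23, adjusted p = 0.135).

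Of the broadly expressed genes, Sox13 fell most. It lay at 8.59, 8.29, 7.89, 8.38 and 7.98 on the non-pregnant and 6.70, 7.05, 6.23, 6.49 and 6.81 on the PBS arrays, without overlap, and its log2 fold change was -1.57 (SE 0.20, adjusted p = 3.27e-05). Six5, which neighbours the myotonic dystrophy kinase gene, lay at 8.58, 8.42, 8.65, 8.71 and 8.77 on the non-pregnant and 8.07, 8.17, 8.02, 7.92 and 8.16 on the PBS arrays, a smaller difference of -0.56 (SE 0.16, adjusted p = 0.00996). Its call was lost with median scaling of the arrays (-0.35, adjusted p = 0.356). Sox12 rose by 0.95 (SE 0.26, adjusted p = 0.00808) on its brighter probe, while its second probe gave 0.40 and did not pass. Sox4 did not pass (0.50 with an SE of 0.27 and an adjusted p of 0.149).

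**Figure D3:**
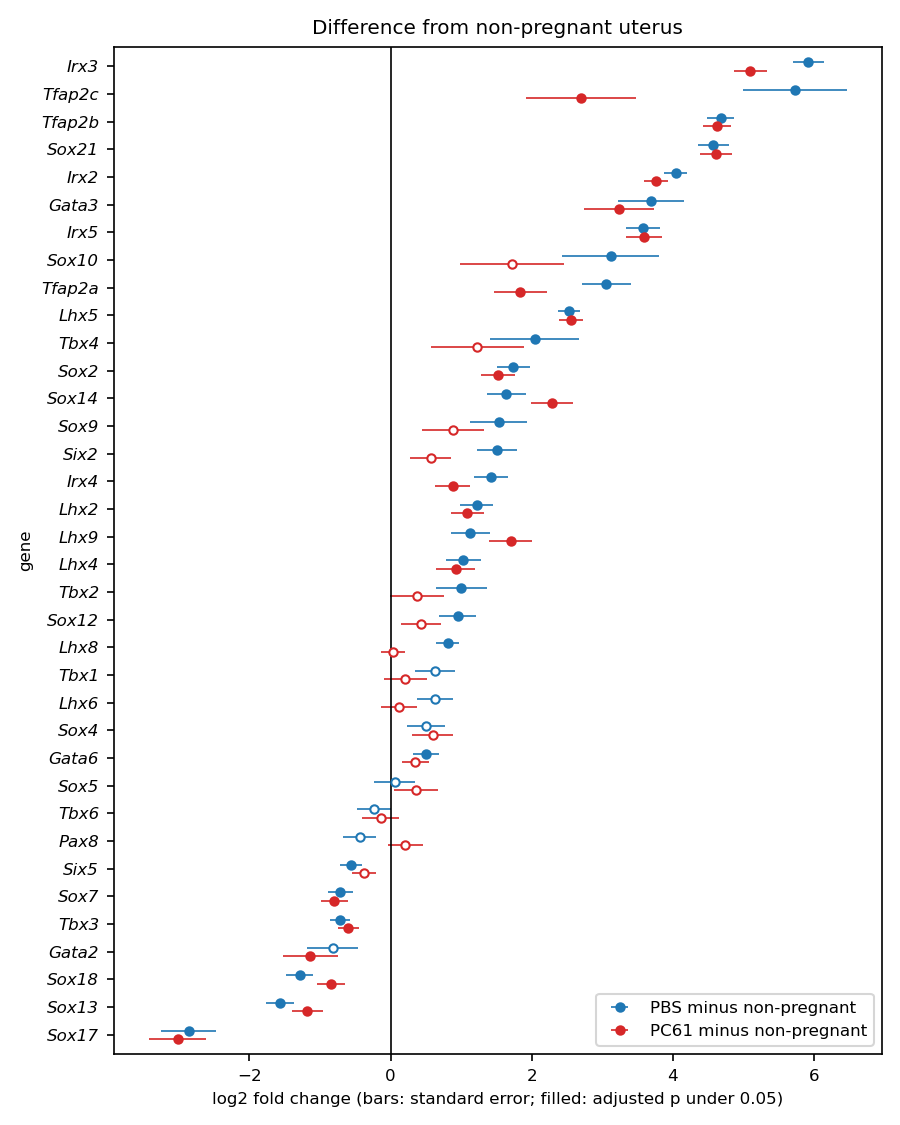
Log2 fold change with its standard error (horizontal axis) of each of the 36 genes (vertical axis) against the non-pregnant group, for PBS in blue and PC61 in red; filled points passed an adjusted p under 0.05. Most filled points lie to the right of 0, Sox17 lies farthest to the left, and the red points of Sox10, Tbx4, Sox9, Six2 and Tbx2 are open while the blue ones are filled.

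The comparison of PC61 with non-pregnant uterus uses the same 5 non-pregnant arrays, so its values are set beside the former ones and not counted as separate evidence. In it, 15 of the 36 genes were higher and 6 lower, against 28.3% of all genes passing, 13.7% as higher and 14.6% as lower. The median log2 fold change was 0.74, against -0.02 for all genes. The filter on dim probes favours rises here too. Of the 15 genes detected on all arrays, 2 were called higher and 6 lower, where 1747 of 7805 genes so detected passed. Neural tube and brain factors were called higher in 10 of 12. Crest and mesoderm factors were called higher in 3 of 13, Irx4, Tfap2a and Tfap2b, with Tbx3 lower, and Six2, Sox9, Sox10, Tbx2, Tbx4 and Gata6 did not pass there.

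The largest fitted rises of this comparison included Irx3, Tfap2b, Sox21, Irx2 and Irx5, of which all but Irx3 were at background in the non-pregnant group and have only lower bounds. Irx3 lay at 10.77, 10.49, 10.23 and 11.53 on PC61 arrays 1 to 4 and Tfap2b at 9.47, 9.49, 8.76 and 9.57. Both were above every non-pregnant array, with log2 fold changes of 5.10 (SE 0.23, adjusted p = 1.33e-09) and 4.63 (SE 0.20, adjusted p = 1.17e-09), and for Tfap2b the bound was at least 17.6-fold. Irx2 lay at 8.40, 8.02, 7.63 and 8.36, Sox21 at 8.65, 10.03, 9.33 and 9.56 and Irx5 at 8.93, 8.01, 7.40 and 8.45. All were above background on all 4 arrays, and they rose at least 7.57-fold, at least 18.5-fold and at least 8.08-fold. Lhx5 lay at 7.44, 6.98, 6.58 and 6.81 and rose at least 3.4-fold (adjusted p = 5.61e-08).

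Both genes grouped by known role as trophoblast factors passed with wide spreads. Gata3 had a log2 fold change of 3.24 (SE 0.50, adjusted p = 2.45e-04). Tfap2c had 2.70 (SE 0.78, adjusted p = 0.0185), and its PC61 range, 6.67 to 12.46, overlapped the non-pregnant range of 5.87 to 6.74. In a fit of only these groups the Tfap2c call was lost (2.70, adjusted p = 0.0722). Relative to the PBS mean, Gata3 stood at -2.74, 0.74, -0.07 and 0.25 on PC61 arrays 1 to 4. Gata3 was thus low on array 1 alone, while the trophoblast list was low on arrays 1 to 3.

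The genes that fell were Sox17, Sox13, Gata2, Sox18, Sox7 and Tbx3. Sox17 lay at 7.11, 7.20, 8.05 and 7.68 on PC61 arrays 1 to 4, below every non-pregnant array, with a log2 fold change of -3.02 (SE 0.41, adjusted p = 7.92e-05). Sox13 lay at 7.16, 7.04, 7.45 and 6.54 and Sox18 at 8.65, 8.41, 8.60 and 7.99. Sox7 lay at 8.07, 7.88, 7.92 and 7.82 and Tbx3 at 9.24, 9.37, 9.27 and 9.05. None of these ranges reached the non-pregnant one, and the log2 fold changes of Sox13, Sox18, Sox7 and Tbx3 were -1.18, -0.85, -0.80 and -0.60. With median scaling the Tbx3 call was lost (-0.76, adjusted p = 0.123). Gata2 lay at 9.80, 11.40, 11.52 and 11.86 and was lowest on array 1. With all arrays its log2 fold change was -1.14 (SE 0.39, adjusted p = 0.0389). The call was lost without PC61 array 1 (-0.70, adjusted p = 0.102), without non-pregnant array 1, 2 or 5 (adjusted p = 0.0554, 0.0907 and 0.0896), without PBS array 1, 3 or 5, with median scaling, and in a fit of only these groups (adjusted p = 0.105). With the replicate number as a block it was -1.06 with an adjusted p of 0.0714. Six5 lay at 8.82, 7.98, 8.08 and 8.11 and did not pass (-0.38 with an SE of 0.17 and an adjusted p of 0.107).

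The series design names the comparison of PC61 with PBS as its subject. Of the 36 genes 0 passed limma's test between these groups, as did 0% of the 10478 genes. At an unadjusted p under 0.05 stood 9 of the 36, 3 higher and 6 lower, and 15.5% of all genes. The lowest adjusted p among the 36 was 0.154, which was also the lowest of all genes. The median log2 fold change of the 36 was -0.16, against 0.01 for all genes. The 4 PC61 arrays lay wholly below the 5 PBS arrays for Lhx8 and Tfap2a, and the groups did not overlap for 1.81% of all genes. A missed threshold does not show that the groups were alike, since the median standard error of these genes was 0.26 on the log2 scale.

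The 5 genes of lowest p in the lower direction were Lhx8, Tfap2c, Irx3, Tfap2a and Six2. Lhx8, a factor of forebrain cholinergic neurons, lay at 4.43, 4.40, 4.82 and 5.00 on PC61 arrays 1 to 4 and at 5.26, 5.36, 5.55, 5.77 and 5.23 on the PBS arrays. No PC61 array had it above background, and its fold was at least 1.2-fold lower with an adjusted p of 0.154. Tfap2c lay at 6.67, 7.92, 9.07 and 12.46, which is far below the PBS arrays on arrays 1 to 3 and above all of them on array 4. Its log2 fold change was -3.03 (SE 0.78, adjusted p = 0.154). Irx3 was below the PBS range on arrays 1 to 3 and inside it on array 4, with -0.82 (SE 0.23, adjusted p = 0.156). Tfap2a lay at 7.57, 5.97, 5.67 and 7.72, far below the PBS arrays on arrays 2 and 3 and close under them on arrays 1 and 4, and its difference was -1.22 (SE 0.37, adjusted p = 0.176). Six2 lay at 5.97, 4.31, 4.38 and 5.44, at background on arrays 2 and 3, and gave -0.94 (SE 0.29, adjusted p = 0.184).

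The 5 of lowest p in the higher direction were Pax8, Sox14, Sox18, Lhx9 and Sox13. Pax8 lay at 5.83, 5.83, 5.31, 5.84 and 6.07 on the non-pregnant, 4.60, 5.52, 5.08, 5.87 and 5.59 on the PBS and 5.96, 5.85, 6.44 and 5.68 on the PC61 arrays. Sox14 lay at 5.89, 7.57, 7.36 and 6.59 on the PC61 arrays, highest on arrays 2 and 3. Lhx9, a factor of gonad and brain, lay at 4.34, 4.29, 4.35, 4.34 and 4.29 on the non-pregnant, 5.86, 5.21, 5.69, 5.25 and 5.25 on the PBS and 6.05, 7.01, 6.09 and 4.96 on the PC61 arrays. In all of these the PC61 and PBS ranges overlapped. The log2 fold changes of Pax8, Sox14, Sox18, Lhx9 and Sox13 were 0.65, 0.65, 0.44, 0.57 and 0.39, with adjusted p-values from 0.245 to 0.393. Irx2 and Tfap2b, in contrast to these, gave -0.28 (SE 0.17, adjusted p = 0.419) and -0.05 (SE 0.20, adjusted p = 0.928).

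The PC61 arrays did not move together. Sox10 lay at 9.37, 4.55, 4.84 and 7.93 on arrays 1 to 4, at background on arrays 2 and 3 and above every PBS array on array 1. Tbx4 took a like order with 9.50, 5.13, 5.15 and 6.75, and Tbx2 with 7.53, 5.43, 5.16 and 6.77. Their log2 fold changes against PBS were -1.40, -0.81 and -0.64, with adjusted p-values of 0.37, 0.568 and 0.431. Single arrays moved them by over 1.5 times. Without PC61 array 1 they were -2.32, -1.78 and -1.08, without array 2 they were -0.69, -0.31 and -0.37, and without array 3 they were -0.79, -0.32 and -0.28, with 0 of them passing. With array weights all 3 passed, at -3.06 (adjusted p = 5.35e-05), -2.05 (adjusted p = 4.83e-04) and -1.37 (adjusted p = 5.35e-04). In that fit 20 of the 36 and 4027 of the 10478 genes passed. Gata3 took another order with 6.26, 9.74, 8.93 and 9.25, low on array 1 alone. Its log2 fold change was -0.45 (adjusted p = 0.683). Gata2 was also lowest on array 1. The natural killer cell and decidua lists were low on that array as well, while the trophoblast list was low on arrays 1 to 3, and their part in the Gata2 and Gata3 values was not tested. The limb list, low on arrays 2 and 3 and high on array 1, moved with Sox10, Tbx2 and Tbx4, and its part was not tested either.

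**Figure D4:**
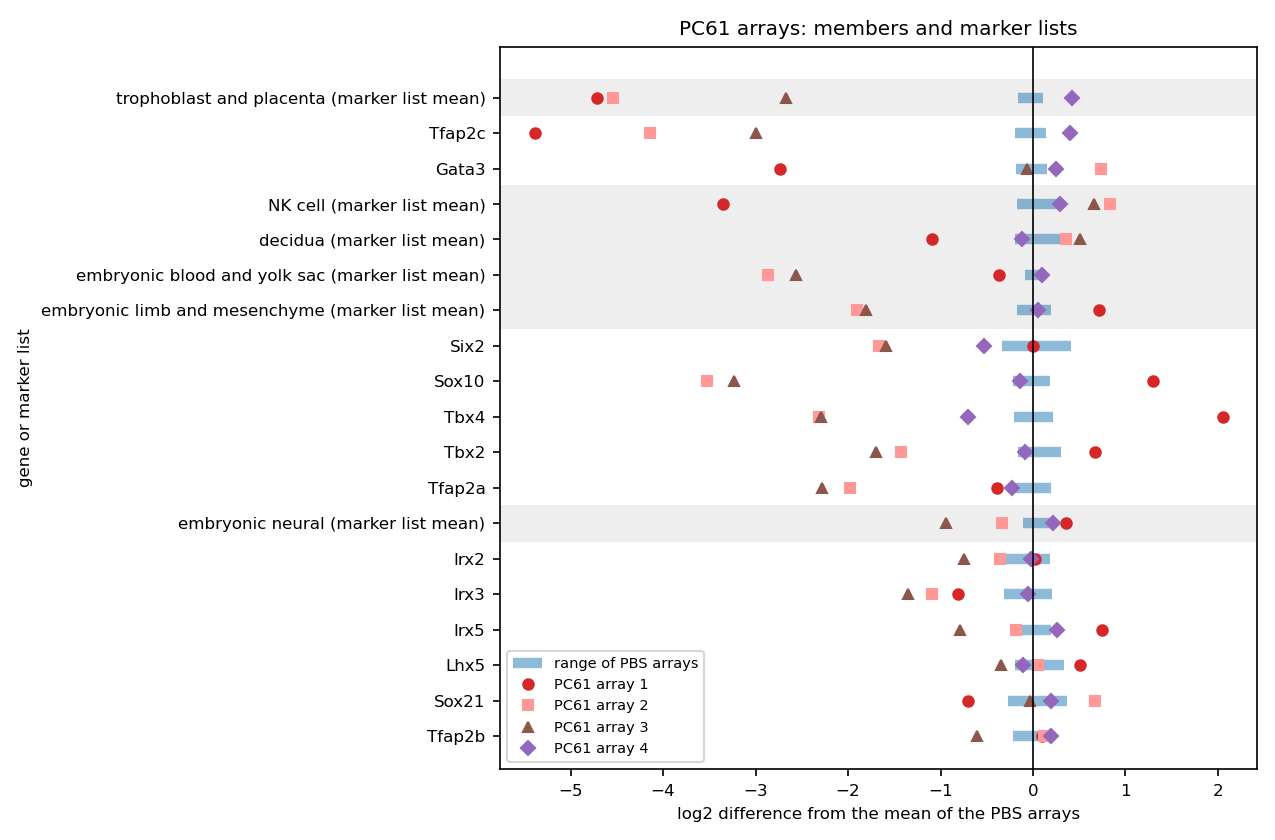
Log2 difference from the mean of the PBS arrays (horizontal axis) on each of the 4 PC61 arrays for genes and, on grey bands, for the means of marker lists (vertical axis); the blue bars show the range of the 5 PBS arrays. Sox10, Tbx2, Tbx4 and the limb list are low on arrays 2 and 3, Tfap2c and the trophoblast list are low on arrays 1 to 3, and Tfap2b stays near the PBS mean, at -0.61 on its lowest array; the genes shown were picked with their values known.

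To place the PC61 arrays between the other groups, the distance from the non-pregnant mean to the PBS mean was set to 100% for each of the 20 genes called at least 2-fold higher in pregnancy. These genes and both ends of the scale come from the arrays already compared, so the positions are a description with no test. The median position was 100% on PC61 array 1, 86.3% on array 2, 51.3% on array 3 and 97.4% on array 4. Under 25% stood Tfap2c on array 1, Irx4, Six2, Sox10, Tbx2 and Tbx4 on array 2, and Six2, Sox9, Sox10, Tbx2 and Tbx4 on array 3, and 0 genes on array 4. Among these 20, all genes under 25% on arrays 2 and 3 were crest or mesoderm factors. The crest factor Tfap2b stood at 103% and 86.9% on these arrays, and the neural factor Lhx4 at 27.8% on array 3. Lhx8, a neural factor with a smaller called rise, was not among the 20. It lay at 4.40 on PC61 array 2, under its non-pregnant mean of 4.63, with both at background. The median difference of the 12 neural tube and brain genes from their PBS means was -0.16, -0.06, -0.67 and -0.04 on arrays 1 to 4, and the median of the 13 crest and mesoderm genes was 0.44, -1.15, -0.92 and -0.23.

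Leaving out PC61 array 4 changed the calls. Without it, 8 of the 36 differed between PC61 and PBS arrays, 1 higher and 7 lower, against 7.83% of all genes as higher and 6.81% as lower. Lhx9 was the higher one, at 0.93 (SE 0.23, adjusted p = 0.0133). Tfap2c fell most, at -4.18 (SE 0.39, adjusted p = 7.13e-06), and Irx3 was lower at -1.08 (SE 0.19, adjusted p = 0.00144) and Tfap2a at -1.56 (SE 0.35, adjusted p = 0.00873). Irx4, Lhx6, Lhx8 and Six2 were lower with log2 fold changes of -0.84, -0.82, -0.89 and -1.10. Leaving out array 1, 2 or 3 in its place gave 0 calls among the 36, with 17, 6 and 5 of them at an unadjusted p under 0.05, where 23.7%, 8.03% and 8.81% of all genes stood. Array 4 was the array on which the trophoblast, limb and blood lists stood closest to PBS.

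The families are not the only patterning factors on the array. A list of 106 other homeobox, forkhead, bHLH and zinc finger patterning genes had 65 tested members. In the pregnant PBS uterus 39 of them were higher and 11 lower, in a comparison where 46.6% of all genes passed, and their median log2 fold change was 1.30. En1, a factor of the midbrain and hindbrain boundary, rose by 3.76 (SE 0.18, adjusted p = 1.19e-09). Pou4f1, a sensory neuron factor, rose by 2.94 (SE 0.16, adjusted p = 3.94e-09), and Shox2, of limb and heart, by 3.42 (SE 0.23, adjusted p = 4.24e-08). On the non-pregnant arrays 32 of the 65 were never above background, so these entered through the pregnant arrays alone. In the PC61 group 23 were higher and 10 lower than in non-pregnant uterus, where 28.3% of all genes passed. Between PC61 and PBS 0 of the 65 passed, as did 0% of all genes. At an unadjusted p under 0.05 stood 14 of them, 2 higher and 12 lower, and 15.5% of all genes. Dlx3, which also stands in the trophoblast list, had the lowest p at -3.14 (SE 0.72, adjusted p = 0.154), and Lmx1a, of the hindbrain roof plate, had -0.95 (SE 0.23, adjusted p = 0.154). Without PC61 array 4, 3 of the 65 were higher and 11 lower, Dlx3 and Lmx1a among the lower ones. Of all genes 7.83% were higher and 6.81% lower in that fit.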

How the data were processed

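Total RNA was measured on 14 arrays, with groups and replicate numbers from the labels. The deposited scanner table has an intensity and a detection p-value per array for 45281 probes, and its intensity values were not normalized between arrays. The authors' normalized table has log2 values for 16948 probes. RNA extraction used Trizol and RNeasy columns, per the labels' protocols. The software behind both tables is not given in the sources used here. Intensities were processed with neqc of limma 3.58.1 (R 4.3.3): normexp background from the detection p-values, offset 16, quantile normalization and log2. Probes with detection p under 0.01 on at least 4 arrays were kept (20967), and the probe of highest mean represented each gene. One mean per group was fitted with lmFit and eBayes (11 residual and 3.36 prior degrees of freedom), with two-sided p-values adjusted by Benjamini-Hochberg over the 10478 genes, and an adjusted p under 0.05 was called. The procedure was tested on simulated data, but no outcome of that is given here and no result rests on it. A gene above background on no array of a group has only a bound there, computed against the higher of its own level and the lowest detected level on each array, and given as "at least". The bound holds only for this background correction and offset. Symbols follow the platform annotation, which left 29807 probes unnamed. The genes, role groups and marker lists were chosen with earlier results of these data known. Levels by array are given for the 8 largest called rises and falls against non-pregnant, the 5 of lowest p per direction between PC61 and PBS, the 6 largest PC61 SDs, and Irx2, Irx3 and Tfap2b. Alternatives tried are given in the closing section. Precision is limited by the number of arrays. The median standard error over all genes was 0.227 between PC61 and PBS.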

Additional observations from a re-analysis of the deposited data

Results flagged for a closer look

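Within a group, an array was singled out when its gap to the nearest other array was a large share of the group's range (Dixon's 95% limit). Of 108 groups of the 36 genes, 6 (5.56%) met it, where chance gives about 1 in 20, so the number is near that of chance. Of these, 3 lie at background on the non-pregnant arrays and 3 above it. Lhx4 lay at 4.58 on non-pregnant array 1, where the other arrays reached 4.40. Sox14 lay at 4.96 on non-pregnant array 1, with the next at 4.55, and at 6.86 on PBS array 4, with the next at 6.09. Tfap2b lay at 5.29 on non-pregnant array 3, with the next at 4.59, and at 8.76 on PC61 array 3, where the other PC61 arrays began at 9.47. Six5 lay at 8.82 on PC61 array 1, with the next at 8.11. Non-pregnant array 3 had the lowest median intensity and the highest lowest-detected level, 5.55, and the part of this in its Tfap2b value was not tested.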

How the results depend on the processing

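Leaving out each array in turn gave 27 to 32 called genes of the 36 between PBS and non-pregnant, 20 to 23 between PC61 and non-pregnant, and 0 to 8 between PC61 and PBS, where 8 came without PC61 array 4 (1531 of all genes). Of all genes, 4387 to 5249, 2405 to 3095 and 0 to 1531 passed in these fits. Asking for detection on all arrays left 15 of the 36 genes to test, of which 11 and 8 passed in the first and second comparison (3204 and 1747 of all genes). Of these, 5 were higher and 6 lower in the first, and 2 were higher and 6 lower in the second. The excess of rises was thus not seen among genes detected on every array. Between PC61 and PBS, median scaling called 5 of the 36, all lower (303 of all genes), and array weights called 20, 5 higher and 15 lower (4027 of all genes). Under median scaling the median log2 fold change of all genes stood at 0.16, -0.15 and -0.30 in the 3 comparisons, in place of -0.03, -0.02 and 0.01, and 1794 genes passed between PC61 and non-pregnant. For PC61 against PBS, Gata3 changed sign to 0.27 with array weights and to 0.31 without PC61 array 1 (range -0.85 to 0.31 without single arrays), and Tfap2b to 0.01 with the mean of probes and to 0.14 without PC61 array 3 (range -0.13 to 0.14). For the 14, 14 and 16 genes shown by array for these comparisons, 341 of 344, 332 of 344 and 360 of 388 values kept direction and side of the threshold in the 3 comparisons. Among these genes, the 12 losses in the second were 10 of Gata2 and 1 each of Tbx3 and Tfap2c, and the 3 in the first, Six5, Sox7 and Tbx3, came with median scaling. With the replicate number as a block (replicate block), 30, 20 and 0 of the 36 passed, as did 4764, 2619 and 0 of all genes. The labels do not say that the numbers pair the samples, and the values do not settle it. Deviations of same-numbered arrays correlated at -0.17 to 0.33, above 0.1 in 4 of 13 pairs. They were 0.00 to 0.33 between non-pregnant and PBS arrays, -0.05 to 0.14 between non-pregnant and PC61, and -0.17 to 0.09 between PBS and PC61. In 12 of 26 cases an array correlated best with its own number, among the 4 or 5 arrays of the other group. That is more often than an even pick among those arrays would give, but the cases share arrays and no test was made. A block for the slide was not run, since the columns name none. Dim genes have only bounds, and signal over background limits Lhx8, Lhx2, Lhx4, Lhx9 and Irx4. Fold sizes depended on the processing too. The PBS rises of Gata3, Irx2, Irx3, Irx5, Sox10 and Sox21 over non-pregnant were smaller, though still called, in each of these settings. The settings were the authors' normalized values, no background correction and a larger offset. For Irx2, Irx5 and Sox21 the fitted rises there lay below the bounds given above.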

Other observations

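Other patterning genes took opposite orders over the PC61 arrays. The 6 genes given here were picked after their values were seen, and their differences were not tested as a group. Otx2, a factor of the forebrain and midbrain, lay at 4.30, 10.29, 9.16 and 8.21 on PC61 arrays 1 to 4 and at 7.46 to 8.06 on the PBS arrays, so it was at background on array 1 and above every PBS array on the other three. Otx1, its relative in the same territory, lay at 5.74, 10.39, 9.19 and 8.85, against 8.57 to 9.18 on the PBS arrays. En2, of the midbrain and hindbrain boundary, lay at 4.43, 9.04, 8.54 and 7.23, against 6.59 to 7.08. En1, which acts in the same territory as En2, was highest on array 1 instead, with 8.55, 7.61, 7.38 and 7.90, against 8.04 to 8.19. Isl1, of motor neurons, heart and hindlimb, also went the other way with 11.12, 6.45, 6.24 and 9.66, against 9.96 to 10.37 on the PBS arrays. Gsc, of craniofacial and limb mesenchyme, lay at 8.90, 4.43, 4.40 and 8.45, against 7.48 to 8.72. Otx1, Otx2 and En2 were thus low on array 1, and Isl1 and Gsc were far below the PBS range on arrays 2 and 3. En1 was lower by less on arrays 2 and 3, and was also below its PBS range on array 4. Among the 36 genes, those highest on array 2 of the PC61 group included Sox14, Lhx9, Sox21 and Gata3. Those highest on array 1 included Sox10, Tbx2, Tbx4, Sox9 and Irx5, and neither list is complete.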
